A study of Mus musculus with 36 samples.

Results

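The *Dlk1*-*Dio3* imprinted cluster was described here through 6 genes, *Dlk1*, *Meg3*, *Rtl1*, *Rian*, *Mirg* and *Dio3*, which were matched by symbol among the 54281 genes of the count and TPM tables. All 6 were among the 21601 genes that were tested. They were chosen after a WT line of this series, WT70, had been seen to hold almost no *Meg3*, *Rian* and *Mirg* RNA, so the values of WT70 are given as a description and without a test. Bulk polyadenylated RNA was sequenced from 36 libraries of 7 mouse ESC lines, all of the strain label B6129S6F1 Tet1<tm1Koh>, as ESCs on day 0 and as cells on the way to anterior neural progenitors (antNPCs) until day 5 of a serum-free neurobasal culture, which contained bFGF until day 3. *Tet1* KO cells (lines KO1 and KO15) and WT cells (lines WT7 and WT34, littermates of the KO lines by the study's methods) were each sequenced in 2 libraries on days 0, 1, 2 and 4, in 4 on day 3 and in 3 on day 5. *Tet1* MUT cells (CM59 and CM69, clones that were edited from WT7 by CRISPR homology directed repair to abolish TET1 catalysis) had 2 libraries on day 3 and 2 on day 5. WT70 had 1 library on each of these days. Its label reads only WT, and whether it is one of the mock-transfected clones that the study made from WT7 is not given there. The libraries came from 3 experiments of 12, 18 and 6 libraries. KO and WT days 0, 3 and 5 made up experiment 1. A second differentiation of the same lines without a day 0 made up experiment 2. MUT and WT70 were only in experiment 3. Where MUT or WT70 is set against KO, WT7 or WT34, genotype and experiment thus cannot be told apart, whereas MUT and WT70 shared an experiment.

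Imprinted genes are transcribed from only 1 parental chromosome, and the choice follows DNA methylation that was laid down in the egg or the sperm. In this cluster the unmethylated maternal chromosome makes a long run of noncoding RNA in a single orientation, from which *Meg3* (a long noncoding RNA), *Rian* (which hosts C/D box snoRNAs) and *Mirg* (which hosts many miRNAs) are annotated. The paternal chromosome, methylated at the intergenic control region, makes the proteins DLK1 (a transmembrane relative of the Notch ligands), RTL1 (a retrotransposon-derived placental protein) and DIO3 (the deiodinase that inactivates thyroid hormone). In mouse pluripotent stem cells the maternal RNAs are known to be lost in some lines, which has been tied to methylation of the control region on both chromosomes. DNA methylation is not part of the files used here, and the alleles were not told apart.

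The 6 genes lie on chromosome 12 (GRCm38, mm10). On the plus strand are *Dlk1* (chr12:109452823-109463336, protein coding), *Meg3* (chr12:109541001-109571726, lincRNA), *Rian* (chr12:109603940-109661716, processed transcript), *Mirg* (chr12:109729764-109749460, lincRNA) and the intronless *Dio3* (chr12:110279068-110281097, protein coding). *Rtl1* (chr12:109589193-109600330, protein coding) lies on the minus strand between *Meg3* and *Rian*. The 300 bases around the first *Meg3* start site (RefSeq, GRCm38.p6, chr12:109540746-109541045, plus strand) are shown because *Meg3*, the first in order of the RNAs that separated WT70 from the other lines, starts there. Capitals mark, in this order, the reverse complement of TGCCGC (the core of the ZFP57 motif, a zinc finger protein that protects imprints), a TGACGTCA site (the CRE motif of CREB and ATF factors) and 2 overlapping TATAAA matches on opposite strands.

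*Meg3* promoter: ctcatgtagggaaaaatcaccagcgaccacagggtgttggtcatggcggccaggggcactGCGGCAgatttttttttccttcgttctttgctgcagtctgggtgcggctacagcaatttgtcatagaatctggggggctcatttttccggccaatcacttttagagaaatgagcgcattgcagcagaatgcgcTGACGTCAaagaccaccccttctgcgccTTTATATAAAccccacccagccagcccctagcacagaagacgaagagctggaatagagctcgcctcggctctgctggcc

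Counted from the start site, TGACGTCA began at position -57, TGCCGC at -190 on the minus strand, and TATAAA at -29 (minus) and -25 (plus). Searched on both strands, TGACGTCA was held by 1.79% of 32851 mouse promoter windows of the same length, TGCCGC by 11.6% and TATAAA by 13.6%. *Dio3* had 1 TATAAA match at -31, and the windows of *Dlk1*, *Rian*, *Mirg* and a second *Meg3* start held none of the 3 motifs. Windows were matched for 5 of the 6 members, without *Rtl1*. A match of letters is a description of the sequence and not of binding.

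Between the start of *Meg3* and the end of *Mirg* RefSeq annotates 60 miRNA genes, 57 of them on the plus strand, with 112 mature miRNAs. Of these genes, 14 lay within *Mirg*, 3 in introns of *Rian*, 2 in exons of *Meg3*, 7 within *Rtl1* and 34 between these genes. The mature products below are shown because they lie in the stretch whose RNAs were missing in WT70, and their seeds (bases 2 to 8, in capitals) are what selects their targets. The first 5 are read from the strand opposite to the *Rtl1* exon and so pair perfectly with *Rtl1* mRNA, the next 3 lie in *Mirg*, and the last 2 lie between *Rian* and *Mirg* and share the seed AUGUAAC.

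miR-431-5p: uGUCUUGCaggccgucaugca
miR-433-3p: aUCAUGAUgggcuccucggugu
miR-127-3p: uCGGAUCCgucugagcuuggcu
miR-434-3p: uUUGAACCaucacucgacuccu
miR-136-5p: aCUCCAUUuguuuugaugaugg
miR-134-5p: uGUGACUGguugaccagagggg
miR-409-3p: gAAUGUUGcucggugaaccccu
miR-410-3p: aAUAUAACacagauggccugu
miR-379-3p: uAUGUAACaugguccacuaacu
miR-411-3p: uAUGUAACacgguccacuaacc

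The 112 mature miRNAs carried 102 distinct seeds, of which 10 were shared by more than 1 of them. Mature miRNAs are not polyadenylated, so none of these sequences was measured.

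Library depth was 10.1 M to 26.3 M estimated counts, and values are given as CPM (counts scaled to a fixed library total with TMM factors) unless TPM, which also accounts for transcript length, is named. No pair of replicate libraries agreed within sampling noise (lowest chi-square per degree of freedom 4.33). *Tet1* itself, the targeted gene, was at 28.9 to 83.1 CPM in KO libraries, against 108 to 1432 CPM in WT libraries. By counts it was lower in KO cells on every day, with a log2 fold change of -5.46 on day 0 and -1.13 on day 5. In TPM the gap was smaller, with 32.9 and 30.5 in KO ESCs, against 119 and 114 in WT ESCs. On day 5 the groups overlapped in TPM, at 15.0 to 22.8 in KO and 17.3 to 23.7 in WT cells. In WT70 it was at 254 CPM on day 3 and 170 CPM on day 5. Naive pluripotency markers (8 genes) summed to 23.5 to 146 CPM in the 9 libraries of day 5, against 4526 to 5117 CPM in the 4 ESC libraries, and neural markers (8 genes) on day 5 to 100 to 127 CPM in KO, 493 to 564 in MUT, 664 in WT70 and 531 to 575 in WT. In bulk libraries fewer cells of a type and less RNA per cell cannot be told apart.

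The maternal noncoding RNAs were abundant in 6 of the 7 lines. Over the 34 libraries other than WT70, *Rian* had a median of 302 TPM (range 124 to 584), *Meg3* of 166 TPM (65.1 to 334) and *Mirg* of 22.4 TPM (5.10 to 43.1). Among all genes of a library, ordered by TPM, *Rian* stood between places 230 and 893 and *Meg3* between places 395 and 1734. The proteins' mRNAs were at lower levels, with *Dlk1* at 0.298 to 9.94 TPM (7 to 227 counts), *Dio3* at 0.0175 to 0.926 TPM (1 to 70 counts) and *Rtl1* at 0 to 0.165 TPM (0 to 33 counts). Of the 3, only *Rtl1* had libraries without a count (4 of 34). *Rian* exceeded *Meg3* in TPM in all 34 libraries, by 1.23 to 2.29 times, while *Mirg* was at 0.0719 to 0.288 of the TPM of *Meg3*. The ranges of *Rian* and *Meg3* overlapped across libraries, as did those of *Dlk1* and *Dio3*.

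WT70 lacked nearly all of the *Meg3*, *Rian* and *Mirg* RNA on both days. *Meg3* was at 1.18 CPM in WT70 on day 3 (23.1 estimated counts), against 631 and 804 CPM in MUT, 363 to 547 CPM in KO and 494 to 643 CPM in WT. On day 5 it was at 0.954 CPM in WT70 (17.1 counts), against 188 and 234 CPM in MUT, 217 to 241 CPM in KO and 260 to 309 CPM in WT. The level in WT70 was thus 0.165% of the MUT mean on day 3 (ratio 0.00165, 95% counting interval 0.00103 to 0.00245) and 0.452% on day 5 (0.00260 to 0.00714 as ratios). The lowest of the other libraries stood 307 times above WT70 on day 3 and 198 times on day 5. Intervals of this kind cover counting error only and not the spread between cultures, of which WT70 has 1 per day.

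*Rian* and *Mirg* were missing in the same way. *Rian* was at 1.33 CPM in WT70 on day 3 and 1.28 CPM on day 5 (26.004 and 22.95 counts), against 545 to 973 CPM in the 10 other libraries of day 3 and 232 to 383 CPM in the 8 of day 5. Its level was 0.158% of the MUT mean on day 3 and 0.435% on day 5. *Mirg* had no count in WT70 on day 3, against 23.4 to 51.4 CPM in the others. With 3 counts taken as the floor it was 299.9-fold lower than the MUT mean. The 95% counting interval of its ratio to that mean reached up to 0.00410. On day 5 *Mirg* had 2 counts in WT70 (0.111 CPM), against 8.06 to 16.9 CPM in the others, a ratio to the MUT mean of 0.0120 (0.00144 to 0.0433). In the order of genes by TPM, *Meg3* stood at places 14710 and 14825 in WT70 and *Rian* at 12331 and 14698.

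The 3 protein-coding members of WT70 did not share this pattern. *Dlk1* was at 0.667 CPM in WT70 on day 3 and 3.78 CPM on day 5, inside the ranges of the other libraries (0.503 to 1.87 and 3.56 to 15.1 CPM). On day 3 that was 0.407 of the MUT mean (0.205 to 0.733), and the WT libraries of WT34 lay nearest to it, at 0.503 and 0.776 CPM, and on day 5 it was 0.986 of it (0.731 to 1.32). *Dio3* was at 2.36 CPM in WT70 on day 3 and 0.167 CPM on day 5, again inside the ranges of the others (1.60 to 2.59 and 0.0674 to 2.19 CPM), and its ratio to the MUT mean on day 3 was 1.14 (0.784 to 1.65). *Rtl1* had 3 and 2 counts in WT70 on days 3 and 5 (0.154 and 0.111 CPM), against 0 to 0.262 and 0.0773 to 2.19 CPM. At this depth no difference in *Rtl1* was detectable on day 3, since both WT70 and most other libraries were at or under 3 counts.

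**Figure D1:**
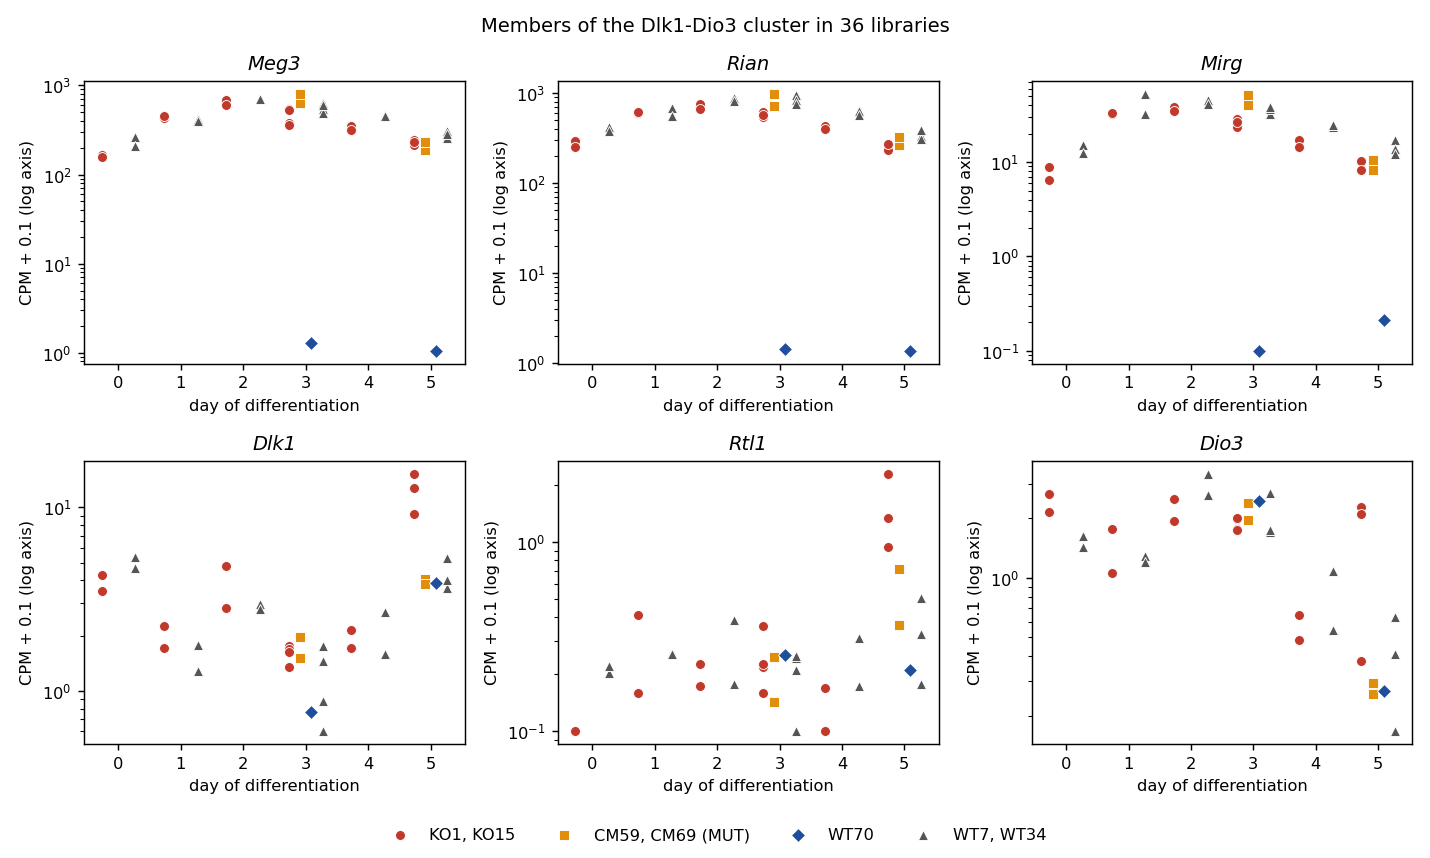
Each panel shows 1 member, with CPM plus 0.1 on a log axis against the day of differentiation and 1 point per library (red circles KO, orange squares MUT, blue diamonds WT70, grey triangles WT). *Meg3*, *Rian* and *Mirg* of WT70 lie far under all other points on days 3 and 5, whereas *Dlk1*, *Rtl1* and *Dio3* of WT70 lie among them, and the KO libraries of day 5 hold the highest *Dlk1* and *Rtl1* values.

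Few genes of the genome stood apart from every other library as these 3 did. Of the tested genes 1.5% (323) were lower in WT70 than in all other libraries of the same day on both days, and 0.0556% (12) were lower by at least 2-fold. The 12 were *Meg3*, *Rian*, *Mirg*, *Gm37899* (also in the cluster), *Gm27000*, *Cdkn1c*, *Phlda2*, *Gprin3*, *Serpinb8*, *Sox8*, *Timp4* and *Trim67*. Of these, *Gprin3*, *Serpinb8*, *Sox8* and *Timp4* lay near the floor, at 0 to 0.258 CPM in WT70. Their lowest values in the other libraries of a day were 0.0694 to 0.604 CPM. In the other direction 1.79% (386) were higher than all others on both days, and 1 gene, *Abcg5*, was so by at least 2-fold. *Abcg5* was at 0.205 and 1.84 CPM in WT70 on days 3 and 5, against at most 0.0975 and 0.618 CPM in the others. With TPM in place of CPM the same 3 members were lower by at least 2-fold, among 18 genes. *Gm27000*, a lincRNA annotated on chromosome X (chrX:88759471-88760312), was at 0 in both WT70 libraries, against 11.5 to 21.9 CPM on day 3 and 3.99 to 11.3 CPM on day 5. Of its 812 stretches of 31 bases, 781 (96.2%) also occur in *Meg3* transcripts, so its counts cannot be told apart from those of *Meg3*.

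The loss in WT70 was set against the order of genes along the chromosome. The annotation places 118 genes from *Dlk1* to *Dio3*, 116 of which are in the tables and 14 of which were tested. Of these 14, 5 were below all other libraries on both days. Besides the 3 members these were *Gm37899* (chr12:109668869-109677585), at 0.0552 and 0.0775 CPM in WT70, against 1.30 to 7.82 and 0.974 to 2.06 CPM in the others, and *B830012L14Rik* (chr12:109695586-109702587), at 0.699 and 0.636 CPM, against 2.22 to 6.69 and 1.17 to 2.67 CPM. Both lie on the plus strand between *Rian* and *Mirg*. Within 1 Mb upstream of *Dlk1* none of 11 tested genes was below all others and 2 (*Eml1* and *Evl*) were above, and within 1 Mb downstream of *Dio3* none of 19 was below and 1 (*Ppp2r5c*) was above. The 59 miRNA genes and 23 snoRNA genes annotated on the plus strand from *Meg3* to *Mirg*, which polyadenylated libraries catch poorly, had 0 summed counts in WT70 on both days. In the other libraries the miRNA genes summed to 19.4 to 53.3 counts on day 3 and 6 to 20.8 on day 5, and the snoRNA genes to 16.3 to 53.2 and 3.91 to 16.9.

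**Figure D2:**
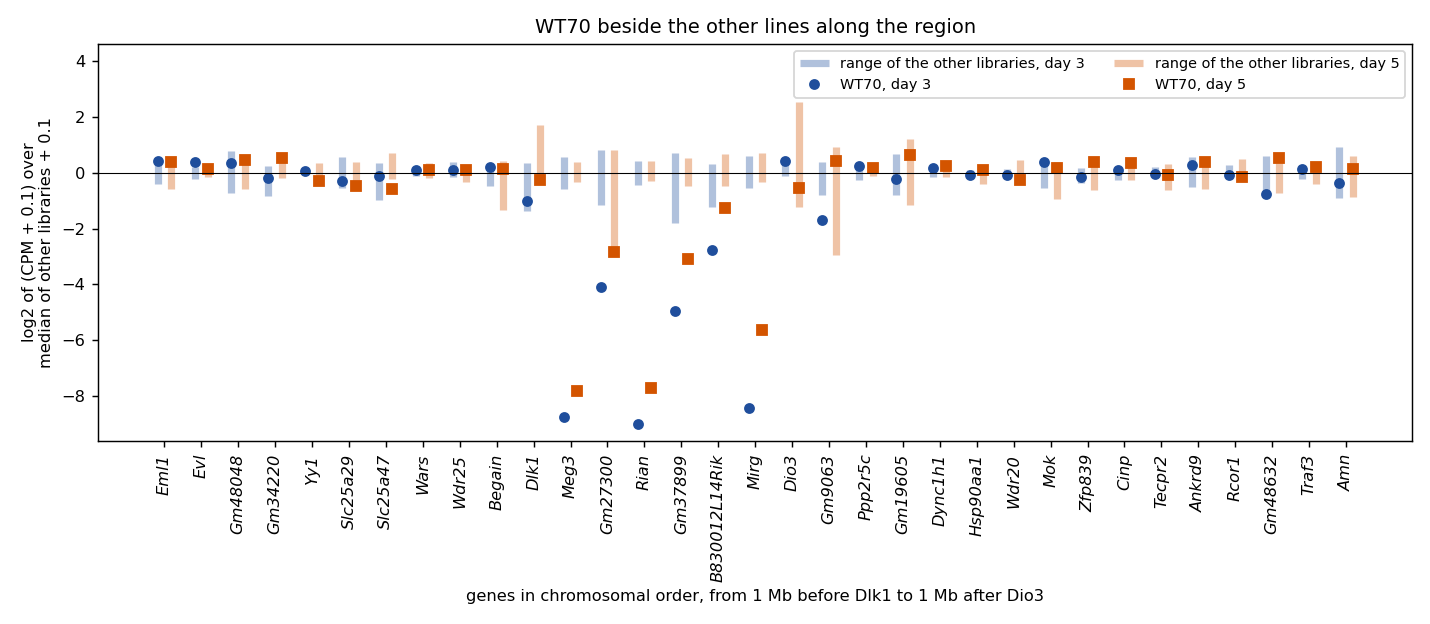
Tested genes around the cluster are in chromosomal order, without those of the lowest medians in the other libraries, such as *Rtl1*. Points give the log2 ratio of WT70 to the median of the other libraries of the same day (CPM plus 0.1), and bars the range of those other libraries. Only *Meg3*, *Rian*, *Mirg* and the genes *Gm37899* and *B830012L14Rik* between *Rian* and *Mirg* leave the bars downwards on both days.

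WT70 also differed at imprinted genes on other chromosomes. Of a list of 35 such genes written from general knowledge after these values had been seen, 34 were matched and tested. Of 6 genes expressed from the maternal allele, 4 were below all other libraries on both days, among them *Cdkn1c* (a cyclin-dependent kinase inhibitor), at 1.80 and 8.29 CPM in WT70 on days 3 and 5, against 12.3 to 29.6 and 47.1 to 147 CPM, and *Igf2r* (which clears IGF2), at 145 and 127 CPM, against 187 to 250 and 219 to 655 CPM. The other 2 were *Phlda2* and *Ascl2*, and none of the 6 was above. Of 23 genes expressed from the paternal allele none was below and 4 were above all others, among them *Kcnq1ot1*, the antisense RNA that silences *Cdkn1c* and *Phlda2* in cis, at 127 and 154 CPM in WT70, against 27.8 to 95.8 and 49.7 to 112 CPM. Of 5 genes whose imprint depends on tissue or isoform, 1 was below (*Grb10*, 97.3 and 15.4 CPM in WT70, against 175 to 450 and 197 to 1457 CPM). Among all tested genes, 1.5% were below and 1.79% above all other libraries on both days. As part of how WT70 stood out, the counts of imprinted genes are a description.

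**Figure D3:**
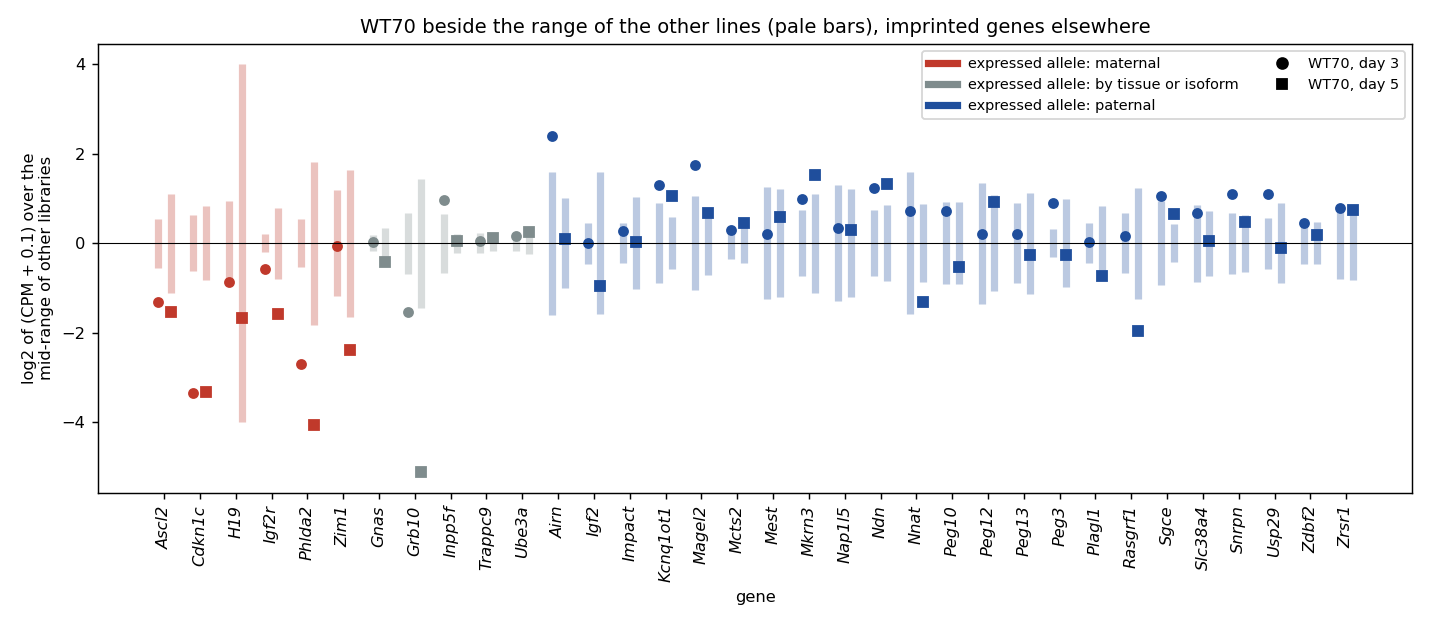
The 34 imprinted genes outside the cluster are grouped by the allele they are expressed from, with the log2 ratio of WT70 to the middle of the range of the other libraries (CPM plus 0.1) as points and that range as bars, for days 3 and 5. The points under the bars on both days are *Igf2r*, *Cdkn1c*, *Phlda2* and *Ascl2* of the maternal class and *Grb10*, and the points above are the paternally expressed *Kcnq1ot1*, *Sgce*, *Ndn* and *Mkrn3*.

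In KO and WT cells the maternal RNAs were higher on day 3 than in ESCs and lower again by day 5. In KO cells *Meg3* averaged 162 ± 7.985 CPM (SD) in 2 libraries of day 0, 442 and 643 CPM on days 1 and 2, 455 ± 97.2 CPM in 4 libraries of day 3, 333 CPM on day 4 and 230 ± 12.4 CPM in 3 libraries of day 5. In as many WT libraries it averaged 238 ± 38.2, 408, 709, 570 ± 66.0, 458 and 284 ± 24.8 CPM on days 0 to 5. The highest *Meg3* means of both genotypes were thus those of day 2. *Rian* averaged 271, 605, 710, 576, 416 and 252 CPM in KO cells on days 0 to 5, and 398, 616, 834, 836, 599 and 339 CPM in WT cells. *Mirg* averaged 7.56, 32.5, 36.6, 25.5, 15.7 and 9.34 CPM in KO cells and 13.7, 42.7, 43.5, 36.2, 24.1 and 14.3 CPM in WT cells. The ratio of *Rian* to *Meg3* in CPM had its highest median in ESCs, at 1.67 on day 0 (range 1.57 to 1.80), which only experiment 1 holds. It had medians of 1.12 to 1.38 on the later days, and its day 3 range of 1.06 to 1.74 overlapped day 0. On day 3 KO libraries of experiment 1 had 585 and 545 CPM of *Rian* beside 379 and 363 CPM of *Meg3*. Those of experiment 2 had 611 and 564 CPM beside 547 and 530 CPM. WT libraries of day 3 had 940 and 809 CPM beside 539 and 494 CPM in experiment 1, and 838 and 758 CPM beside 643 and 603 CPM in experiment 2. The lowest ratios of day 3 were thus those of experiment 2. Days 1, 2 and 4 were only in experiment 2, so their lower medians cannot be told apart from the experiment. On day 5 KO libraries of experiment 1 had 254 and 232 CPM of *Rian* beside 241 and 217 CPM of *Meg3*. WT libraries of that day and experiment had 328 and 304 CPM beside 309 and 260 CPM.

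The change from ESCs to day 3 was tested in both genotypes with edgeR's quasi-likelihood test (Benjamini-Hochberg adjustment over all tested genes). A gene is said to have risen or fallen where the adjusted p was under 0.05 and the log2 fold change was beyond 1. In KO cells, where 21.2% of all genes passed, 4 of the 6 members did. *Mirg* rose by 1.75 ± 0.20 (log2 fold change ± SE), *Meg3* by 1.35 ± 0.13 and *Rian* by 1.06 ± 0.13, and *Dlk1* fell by 1.31 ± 0.34 (adjusted p = 0.00249). In WT cells, where 22.5% of all genes passed, the same 4 members did. *Mirg* rose by 1.41 ± 0.19 (adjusted p = 7.52e-07), *Meg3* by 1.13 ± 0.13 (7.92e-08) and *Rian* by 1.04 ± 0.13 (1.77e-07), and *Dlk1* fell by 2.21 ± 0.34 (6.75e-06). *Dlk1* was at 0.503 to 1.66 CPM in the 4 WT libraries of day 3, against 4.58 and 5.25 CPM on day 0. In KO libraries it was at 1.24 to 1.66 CPM on day 3, against 3.42 and 4.16 CPM on day 0. The days did not overlap in either genotype. ESCs were grown on feeder cells and depleted of them before plating. Fibroblast markers (14 genes) summed to 1828 to 1933 CPM in WT and 1540 to 1640 CPM in KO libraries of day 0. On day 3 they summed to 418 to 583 CPM in WT and 305 to 373 CPM in KO libraries. The part of feeder cells in the fall of *Dlk1* was not tested.

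The calls for *Meg3* and *Rian* lie close to the fold limit. Without the day 0 library of WT34 their WT changes were 0.94 and 0.95 and only *Dlk1* and *Mirg* passed. Without the experiment 1 library of WT7 on day 3 the WT change of *Rian* was 0.91, and without the day 0 library of KO15 its KO change was 0.94. These fits hold libraries of all days, and their term for experiment 2 is estimated from days 3 and 5 together. The KO libraries of day 3 showed the gap between experiments most clearly for *Meg3*, at 379 and 363 CPM in experiment 1 and 547 and 530 CPM in experiment 2. On day 5 the KO libraries had no such gap, at 241 and 217 CPM of *Meg3* in experiment 1 and 233 CPM in experiment 2. No member differed between the genotypes in its change to day 3 (lowest adjusted p 0.245), in a test that 2.57% of all genes passed.

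By day 5 *Rian* and *Mirg* were lower and *Dlk1* higher than on day 3 in KO, MUT and WT cells. In KO cells, where 22.3% of all genes passed, *Rian* fell by 1.19 ± 0.11 and *Mirg* by 1.44 ± 0.16, while *Dlk1* rose by 3.02 ± 0.28 (adjusted p = 1.69e-09) and *Rtl1* by 3.28 ± 0.67 (0.000209). In MUT cells, where 17.4% passed, *Meg3* fell by 1.77 ± 0.14, *Rian* by 1.53 ± 0.14, *Mirg* by 2.30 ± 0.20 and *Dio3* by 3.50 ± 0.63 (7.42e-05), and *Dlk1* rose by 1.22 ± 0.36 (0.00912). In WT cells, where 15.5% passed, *Rian* fell by 1.30 ± 0.11 (4.23e-10), *Mirg* by 1.34 ± 0.15 (1.05e-07) and *Dio3* by 2.75 ± 0.51 (8.36e-05), and *Dlk1* rose by 2.00 ± 0.30 (4.98e-06). *Meg3* had log2 fold changes of -0.92 ± 0.11 in KO and -0.95 ± 0.11 in WT cells, both with adjusted p under 9e-08 and short of the fold limit. Without the day 5 library of WT7 of experiment 1 the WT value was -1.03 and passed. Without the day 3 library of CM59 the MUT change of *Dlk1* was 1.04 with an adjusted p of 0.0931.

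The course of *Dio3* in KO cells differed between experiments. Its values on day 5 were 2.19, 2.01 and 0.281 CPM in KO cells (the last from experiment 2, with 3 counts), 0.159 and 0.192 CPM in MUT cells, and 0.530, 0.309 and 0.0674 CPM in WT cells (the last from experiment 2, with 1 count). On day 3 it was at 1.64 to 1.90 CPM in KO, 1.87 and 2.29 CPM in MUT and 1.60 to 2.59 CPM in WT cells, so the groups overlapped on that day. In experiment 1 KO1 and KO15 thus had 2.19 and 2.01 CPM on day 5, against 1.66 and 1.64 CPM on day 3, whereas KO1 in experiment 2 had 0.281 CPM on day 5, against 1.88 CPM on day 3. On the earlier days KO and WT values overlapped on day 1 but not on day 0 (2.56 and 2.04 CPM in KO, against 1.53 and 1.33 CPM in WT) or day 2 (2.40 and 1.84 CPM in KO, against 2.51 and 3.25 CPM in WT), with adjusted p of 0.583 and 0.826 on these 2 days. Over both experiments the KO change to day 5 did not pass (-0.33 ± 0.41, adjusted p = 0.550), and it differed from the WT change by a log2 value of 2.43 ± 0.64 (adjusted p = 0.00646), a test that 9.43% of all genes passed. Both libraries of day 4 from each genotype, all from experiment 2, already had low *Dio3*, with 0.547 and 0.384 CPM in KO and 0.445 and 0.986 CPM in WT cells. The difference for *Dlk1* was 1.02 ± 0.41 (adjusted p = 0.0790) and did not pass. It passed when the second day 3 library of WT (WT34, experiment 1) was left out (1.23, adjusted p = 0.0241), when the experiment 2 library of KO1 on day 5 was (1.26, 0.0355) and when that of WT7 was (1.24, 0.0371).

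**Figure D4:**
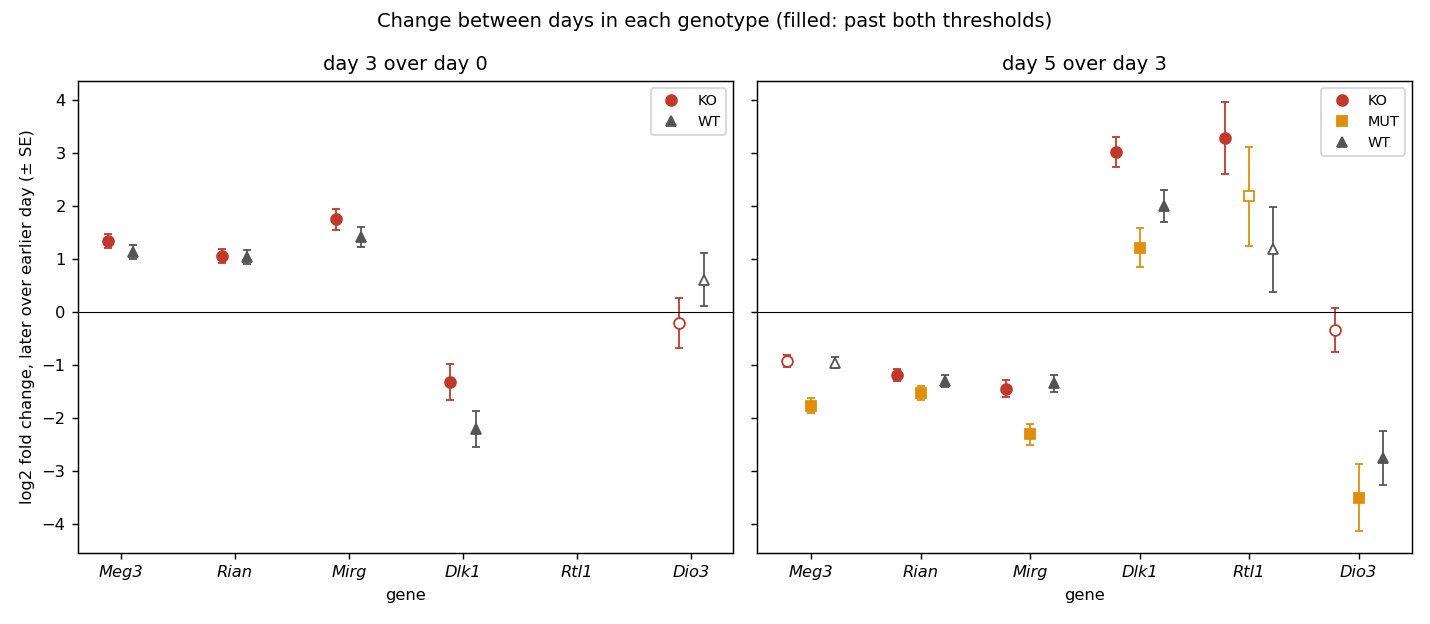
Log2 fold changes of the 6 members with their standard errors are shown for day 3 over day 0 and day 5 over day 3, in KO, MUT (day 5 over day 3 only) and WT cells, with filled symbols where a change passed the test. *Rtl1* is drawn only for day 5 over day 3. The first interval shows *Meg3*, *Rian* and *Mirg* up and *Dlk1* down in both genotypes, the second shows the reverse, and *Dio3* of KO cells, pooled over experiments that went apart, lies at -0.33 where those of MUT and WT cells lie at -3.50 and -2.75.

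KO and WT cells were then compared on each day. In ESCs no member passed, in a comparison that 0.866% of all genes passed, but all 3 noncoding RNAs were lower in both KO libraries than in both WT libraries. *Meg3* was at 168 and 156 CPM in KO ESCs, against 265 and 211 CPM in WT ESCs (log2 fold change -0.56 ± 0.14, adjusted p = 0.0221). *Rian* was at 292 and 249 CPM, against 416 and 380 CPM (-0.56 ± 0.14, 0.0183), and *Mirg* at 8.83 and 6.28 CPM, against 15.0 and 12.4 CPM (-0.85 ± 0.22, 0.0245). An adjusted p under 0.05 in this direction was reached by 1.62% of all genes. With a library left out the adjusted p of each could exceed 0.05 (up to 0.288, 0.253 and 0.321 for *Meg3*, *Rian* and *Mirg*). *Mirg* crossed the fold limit only when the day 0 library of KO1 was left out (-1.13, adjusted p = 0.0278). Fibroblast markers (14 genes, since ESCs were grown on feeder cells and depleted of them before plating) summed to 1540 to 1640 CPM in KO ESCs, against 1828 to 1933 CPM in WT ESCs, and their part in these differences was not tested.

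On days 1 and 2 no member passed or reached an adjusted p under 0.05, when 0.634% and 0.616% of all genes passed. *Meg3* was at 435 and 449 CPM in KO cells of day 1, against 421 and 396 CPM in WT cells. Both KO values were the higher. *Rian* and *Mirg* overlapped on day 1. On day 2 *Meg3*, *Rian* and *Mirg* were each lower in both KO libraries than in both WT libraries. *Meg3* was then at 681 and 606 CPM, against 705 and 713 CPM, and *Rian* at 758 and 662 CPM, against 866 and 802 CPM. *Mirg* was at 38.3 and 34.8 CPM, against 45.4 and 41.6 CPM. The log2 fold changes of day 2 were -0.14 ± 0.14, -0.23 ± 0.13 and -0.25 ± 0.19, in that order.

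On days 3 and 4 the noncoding RNAs were at lower levels in KO cells, by less than the fold limit. No member passed on day 3, when 3.96% of all genes did. *Rian* was at 545 to 611 CPM in the 4 KO libraries, against 758 to 940 CPM in the 4 WT libraries, with no overlap (log2 fold change -0.54 ± 0.10, adjusted p = 0.000194). *Mirg* was at 23.4 to 28.3 CPM, against 32.5 to 38.1 CPM, also with no overlap (-0.50 ± 0.13, 0.00864). *Meg3* overlapped, at 363 to 547 CPM in KO and 494 to 643 CPM in WT cells (-0.34 ± 0.10, 0.0170). Within experiment 1 alone the values were -0.62 for *Rian*, -0.57 for *Mirg* and -0.46 for *Meg3*, and within experiment 2 alone -0.44, -0.43 and -0.21, in that order, each with an adjusted p under 0.05. When each library was left out in turn, the highest adjusted p was 0.00261 for *Rian*, 0.0470 for *Mirg* and 0.115 for *Meg3*. An adjusted p under 0.05 with lower levels in KO cells was found for 9.5% of all genes.

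On day 4 the 3 RNAs had log2 fold changes of -0.53 ± 0.13 (*Rian*, adjusted p = 0.00690), -0.46 ± 0.14 (*Meg3*, 0.0200) and -0.62 ± 0.20 (*Mirg*, 0.0316), and none passed, when 7.68% of all genes did and 8.74% were lower at an adjusted p under 0.05. *Meg3* was at 349 and 316 CPM in KO cells, against 464 and 453 CPM in WT cells, *Rian* at 432 and 401 CPM, against 627 and 572 CPM, and *Mirg* at 17.03 and 14.3 CPM, against 23.7 and 24.4 CPM. With either library of a group left out, the adjusted p of each could exceed 0.05 (up to 0.207, 0.101 and 0.267 for *Meg3*, *Rian* and *Mirg*). Primitive streak markers (6 genes) in the same libraries summed to 443 to 748 CPM in KO, against 13.2 to 26.8 CPM in WT cells on day 3, and to 701 and 702 CPM in KO, against 101 and 102 CPM in WT cells on day 4. Whether the change in cell types takes part in the lower noncoding RNA was not tested.

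On day 5 all 3 protein-coding members were higher in KO cells, and all 3 passed, in a comparison that 11.7% of all genes passed. *Dlk1* was at 15.1, 12.6 and 9.09 CPM in KO cells, against 3.56, 3.94 and 5.19 CPM in WT cells, a 2.89-fold increase without overlap (log2 fold change 1.53 ± 0.29, adjusted p = 0.000163). *Rtl1* was at 2.19, 1.24 and 0.843 CPM (33, 21 and 9 counts), against 0.227, 0.0773 and 0.405 CPM (3, 1 and 6 counts), 5.85-fold higher (2.55 ± 0.71, 0.00731). *Dio3*, with the values given above, was 4.99-fold higher (2.32 ± 0.53, 0.00125), and its KO and WT libraries overlapped between experiments but not within them. In experiment 1 alone the log2 fold changes were 1.90 for *Dlk1*, 3.43 for *Rtl1* and 2.32 for *Dio3*, and all 3 passed. Experiment 2 had 1 library per genotype on day 5, and in each of the 3 genes the KO value was the higher. *Rtl1* no longer passed when the WT34 library was left out (2.11, adjusted p = 0.0528), and *Dlk1* and *Dio3* passed with any library left out.

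The noncoding RNAs had lower values in KO cells on day 5 and did not pass. *Rian* averaged 252 ± 17.9 CPM in KO cells and 339 ± 40.5 CPM in WT cells (log2 fold change -0.43 ± 0.11, adjusted p = 0.00388), *Mirg* 9.34 ± 1.12 and 14.3 ± 2.37 CPM (-0.60 ± 0.17, 0.00799) and *Meg3* 230 ± 12.4 and 284 ± 24.8 CPM (-0.30 ± 0.11, 0.0426), and no KO library overlapped a WT library in any of them. An adjusted p under 0.05 with lower levels in KO cells was found for 16.2% of all genes. With a library left out it could exceed 0.05 as well (up to 0.0533 for *Rian*, 0.0859 for *Mirg* and 0.348 for *Meg3*). With the libraries of each line summed, the adjusted p was 0.0573 for *Rian*, 0.0719 for *Mirg* and 0.131 for *Meg3*, and 0.0359 or lower for the 3 protein-coding members. The median log2 fold change of the 6 members, 0.61, stands beside -0.01 over all tested genes and is taken over members of opposite signs.

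**Figure D5:**
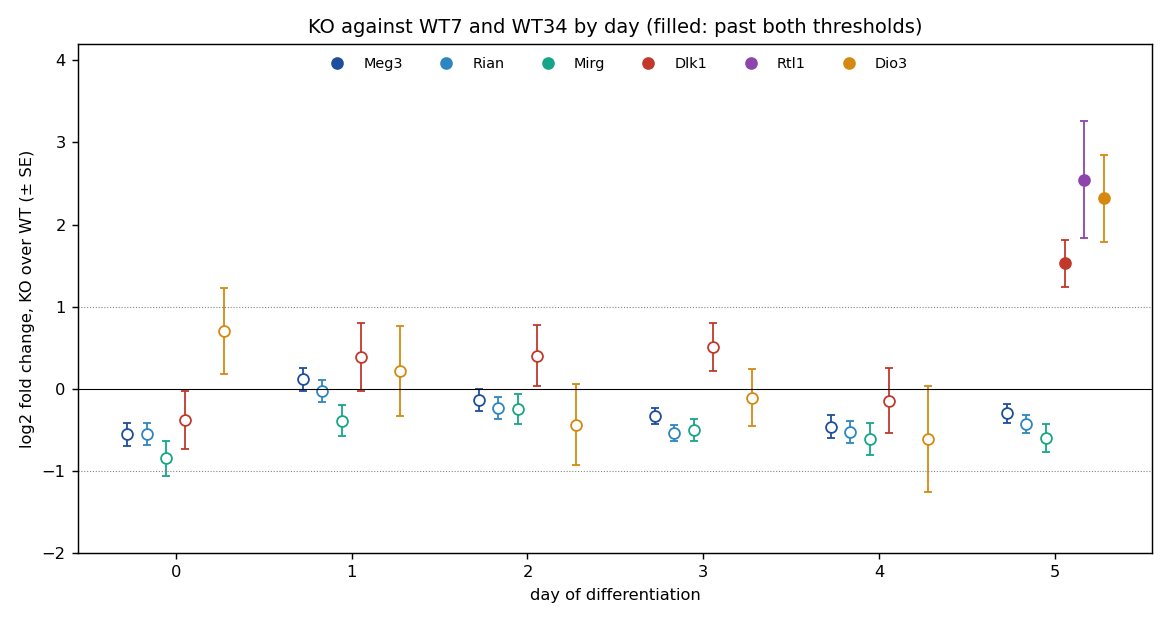
KO over WT log2 fold changes of the members with their standard errors are plotted by day, with filled symbols where the test was passed and *Rtl1* drawn on day 5 only. *Meg3*, *Rian* and *Mirg* pass on no day, and *Dlk1*, *Rtl1* and *Dio3* pass on day 5 only.

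The cells compared on day 5 differ in type. Mesoderm markers (9 genes) summed to 312 to 407 CPM in KO, 111 and 112 in MUT, 35.8 in WT70 and 17.9 to 57.4 in WT cells, and all 9 were higher in KO than in WT cells. Endoderm markers (6 genes) summed to 458 to 550 CPM in KO, 154 to 167 in MUT, 30.4 in WT70 and 11.8 to 93.3 in WT cells, and all 6 were higher in KO. All 8 neural markers were lower in KO. Fibroblast markers summed to 1607 to 1865 CPM in KO, 1373 to 1398 in MUT, 732 in WT70 and 833 to 1120 in WT cells, of which 5 were higher, 4 lower and 5 did not pass between KO and WT. Of these, *Lum* was at 0 in some WT libraries and *S100a4* in some KO libraries and in WT70. *Dlk1* and *Rtl1* are known from mesoderm-derived and placental tissue, and whether mesoderm and endoderm cells carry the higher *Dlk1*, *Rtl1* and *Dio3* was not tested. MUT cells, with marker sums between those of KO and WT cells for mesoderm and endoderm, had 3.97 and 3.70 CPM of *Dlk1* on day 5, against 3.56 to 5.19 CPM in WT cells.

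No member passed between *Tet1* MUT cells and WT7 and WT34 on day 3 (3.12% of all genes passed) or on day 5 (8.6%). MUT cells were only in experiment 3, and WT7 and WT34 only in experiments 1 and 2. Genotype and experiment thus cannot be told apart in this comparison. *Meg3* was at 631 and 804 CPM in MUT cells of day 3, against 494 to 643 CPM in WT cells (log2 fold change 0.46 ± 0.12, adjusted p = 0.0148), and at 188 and 234 CPM on day 5, against 260 to 309 CPM (-0.35 ± 0.13, 0.0470). *Mirg* was at 8.16 and 10.4 CPM in MUT cells of day 5, against 12.2 to 16.9 CPM (-0.62 ± 0.19, 0.0184). CM69 was the higher of the 2 clones for *Meg3*, *Rian* and *Mirg* on both days. With a library left out the adjusted p of these 3 differences could exceed 0.05 (up to 0.326, 0.431 and 0.208). *Rtl1* had 5 and 13 counts in MUT cells of day 5 (0.265 and 0.625 CPM), against 3, 1 and 6 in WT cells, with an adjusted p of 0.472.

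The lines of 1 genotype were also compared over their shared libraries. No member passed between KO1 and KO15, where 0.0313% of 19153 genes did, or between WT7 and WT34, where 0.0593% of 18537 genes did. *Rian* had the lowest adjusted p between WT7 and WT34 (0.199) and *Rtl1* was not tested there. Within KO, MUT or WT libraries of 1 day the highest *Meg3* value was at most 1.51 times the lowest, with 1.35 times for *Rian* and 1.62 times for *Mirg*. The protein-coding members varied more, by up to 3.31 times for *Dlk1*, 5.24 times for *Rtl1* (among groups without a library at 0) and 7.86 times for *Dio3*.

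Genes of linked functions were counted over lists that were written with earlier results of these data known. For *Dio3*, 5 of 7 genes of thyroid hormone handling were tested, and on day 5, when 11.7% of all genes passed, KO cells had 2 of them higher than WT cells, the receptor *Thrb* (log2 fold change 2.34 ± 0.65, adjusted p = 0.00680) and the transporter *Slco1c1* (2.90 ± 0.92, 0.0215), and none lower. *Dio2*, the activating deiodinase, had no count in any KO library of day 5 and was not tested. For *Dlk1*, 12 genes of the Notch pathway were tested and 2 were higher and 3 lower in KO cells, among them *Hey1* (1.31 ± 0.22) and *Hes5* (-3.46 ± 0.42), both Notch targets. The median log2 fold change was 0.45 over the thyroid list and 0.24 over the Notch list, beside -0.01 over all tested genes. Of 9 genes of Polycomb repressive complex 2, *Phf19* was lower (-1.97 ± 0.17) and the others did not pass, a share close to the 11.7% of all genes.

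Of 15 genes of imprint control and DNA methylation, *Tet1* alone differed between KO and WT cells on day 5. In WT cells of day 3, against day 0, a comparison that 22.5% of all genes passed, 3 of the 15 were higher and 5 lower, among them *Zfp57* (-3.01 ± 0.09) and *Tet2* (-4.91 ± 0.17). Of the 34 imprinted genes outside the cluster, 11 were higher and 3 lower in KO than in WT cells on day 5, beside 11.7% of all genes in either direction, led by *Igf2* (2.53 ± 0.17), a paternally expressed growth factor, and *Igf2r* (1.29 ± 0.09) and *H19* (2.84 ± 0.24), which are maternally expressed. The 3 maternally expressed members of the cluster had lower values in the same comparison, as given above.

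The courses of the members across libraries were compared as a description, since libraries share days, lines and experiments. Over the 36 libraries *Meg3* correlated with *Rian* at r = 0.993 and with *Mirg* at 0.937 (log2 of CPM plus 1), and over the 34 without WT70 at 0.938 and 0.941. *Meg3* and *Dlk1* had r = -0.09 over 36 libraries and -0.60 without WT70, and *Dlk1* and *Rtl1* had 0.686 and 0.709. Outside the cluster, the genes most like *Meg3* over 36 libraries were *Gm27000* (0.92), which shares its sequence, and then *Gm21992* (0.56), *Dusp11* (0.55), *Gas2l1* (0.54) and *Ghitm* (0.53). Without WT70 none of these 5 was among the first 5, and the order was led by *Slc35d3* (0.91), *Jph4*, *Pim2* and *Spred3*. The genes most like *Dlk1* were *Tle1* (0.87), *Emilin1* (0.85), *Rictor* (0.82), *Fgfrl1* (0.82) and *Pdgfrb* (0.81), and the same 5 came first without WT70.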

How the data were processed

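Reads of 36 stranded polyadenylated RNA libraries were trimmed by the authors with Trim Galore 0.6.4 and quantified with Salmon 0.14.1 on GENCODE mouse transcripts. The deposited expected counts per gene and the deposited TPM values are sums over transcripts, unscaled between libraries for the counts. Whether strand was used in counting is not given in the sources used here, so *Rtl1* and the transcripts antisense to it may not be told apart, and reads shared by similar transcripts were split by estimate. The comparison of KO with WT and of days used edgeR 4.0.16 (R 4.3.3) on rounded counts, with TMM factors, filterByExpr (counts of at least 10, totals of at least 15) and 1 quasi-likelihood fit of all libraries with 16 group means and a term for experiment 2. All adjusted p are Benjamini-Hochberg values over all tested genes, two-sided. A change passed where the adjusted p was below 0.05 and the log2 fold change exceeded 1 in size. The standard error (SE) was derived from the fold change and its F statistic. WT7 with WT34 and KO1 with KO15 were compared in fits of their own, blocked by day and experiment. Libraries of 1 genotype come from 2 lines, and those of days 3 and 5 include second differentiations, so n counts libraries. Ratios of WT70 carry 95% exact intervals for counts, and a count of 0 was bounded at 3 counts over the group. The named genes were the members, their annotated neighbours within 1 Mb, up to 4 passing genes per list by p, and the 5 genes outside the cluster most like *Meg3* and *Dlk1* among genes with a mean of at least 5 CPM. Members and lists were chosen with earlier results of these data known. The results were recomputed with DESeq2 1.42.0, with RLE factors, without the filter, with a fold limit of 1.5, without the experiment term, on the compared groups alone, with limma 3.58.1 on log2(TPM + 1) with genes of at least 1 TPM in 2 libraries, on single experiments, with the libraries of a line summed, with a replicate block, and with each library left out.

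The same lines were sampled on each day, so the block by line in day comparisons rests on the design. Deviations of a line on 2 days correlated by -0.056 to 0.213. KO and WT lines are littermate pairs by the study's methods, but which KO line belongs with which WT line is not given in the sources used here, so KO1 with WT7 and KO15 with WT34 were matched by their order alone.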

Additional observations from a re-analysis of the deposited data

Results flagged for a closer look

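*Dio3* in WT cells of day 3 held 1 library far from the other 3. WT34 of experiment 2 was at 2.59 CPM, against 1.60 to 1.65 CPM in the others, a gap beyond the 95% limit of Dixon's test (0.829 for 4 samples). Such a test flags about 1 in 20 groups by chance, and 12 groups were tested.

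The change of *Dio3* from day 3 to day 5 differed between the genotypes, by a log2 value of 2.43 (KO change minus WT change, adjusted p = 0.00646, edgeR's quasi-likelihood test). *Dio3* was at 0.281 to 2.19 CPM in KO cells of day 5, against 0.0674 to 0.530 CPM in WT cells, and the log2 value was 1.99 to 3.06 with each library left out in turn. The KO course went apart between experiments, which leaving out single libraries does not show. KO1 and KO15 of experiment 1 went from 1.66 and 1.64 CPM to 2.19 and 2.01 CPM. KO1 of experiment 2 went from 1.88 CPM to 0.281 CPM (3 counts).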

How the results depend on the processing

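Of 620 refitted values of member changes with an adjusted p under 0.05, none changed sign, 8 came to pass and 21 no longer passed. Of 837 refitted values of the other member changes, 49 changed sign and 2 came to pass. The number of members past the test for KO against WT on day 5 (3) was 1 with limma on TPM, where *Rtl1* and *Dio3* are under the TPM limit, and that of MUT day 5 over day 3 (5) was 3. At a fold limit of 1.5, 1 member passed for WT day 3 over day 0 and 1 for KO, and 2 for WT day 5 over day 3 and 2 for KO (4 each at a limit of 1). With DESeq2 and with RLE factors *Rian* in WT cells of day 3 over day 0 was at 0.99.

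With each library left out, the counts ranged from 0 to 1 for KO against WT on day 0, 0 to 0 on days 1 to 4 and 2 to 3 on day 5, 2 to 4 for WT day 3 over day 0, 4 to 5 for WT day 5 over day 3, 3 to 5 for KO day 3 over day 0 (the fifth being *Rtl1*), 4 to 4 for KO day 5 over day 3, 4 to 5 for MUT, and 1 to 2 for the difference of changes to day 5. A replicate block left the counts as they were, with 4 and 4 in WT, 4 and 4 in KO, 5 in MUT, 0 for KO against WT on days 0 to 4 and 3 on day 5. Lines in the same order correlated by -0.124 to 0.539 in their deviations from group means, and by 0.0391 to 0.0845 within an experiment. Of the 5 genes most like *Meg3*, 0 stayed without WT70 and 2 over 16 group means, and of those most like *Dlk1* 2 over group means.

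WT70 had 1 library per day, *Rtl1* had at most 33 counts in a library and *Dio3* at most 70, and *Dlk1* as few as 7, so differences of these genes were measured with the least precision.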
